A study of Mus musculus with 18 samples.

Results

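The genes described here make up the core of transforming growth factor beta (TGF-beta) signalling: the ligands Tgfb1, Tgfb2 and Tgfb3, the latent ligand binder Ltbp1, the receptors Tgfbr1, Tgfbr2 and Tgfbr3, and the signal carriers Smad2 and Smad3. Every probe set that the platform annotation pairs with 1 gene symbol, that symbol being one of these 9, was taken whatever its values, which gave 16 of 22626 probe sets. Where a gene had several probe sets, the one with the highest mean over the 18 arrays was its main probe set and the others are given beside it.

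RNA came from whole testes of 10-week-old hpg male mice, a hypogonadal mutant without gonadotrophin-releasing hormone, so that the pituitary releases little follicle-stimulating hormone (FSH) or luteinising hormone. Groups of 4, 3 and 4 mice received recombinant FSH (rFSH, Gonal F) at 8 IU in 0.2 ml of PBS under the skin every 12 h for 12, 24 or 72 h, and testes were collected 1 h after the final dose. The controls were 7 hpg males of that age, labelled as untreated, with no vehicle injection named. Each mouse gave 1 Affymetrix MOE430A array, read in 1 colour. All groups carry the hpg mutation, and no group had normal gonadotrophins. Since the whole organ was extracted, fewer cells of a type and less RNA per cell cannot be told apart.

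TGF-beta ligands are secreted as latent complexes, in which proteins such as LTBP1 tether them to the matrix until they are released. Active ligand binds the type II receptor TGFBR2, which recruits and activates the type I receptor TGFBR1, while TGFBR3 (betaglycan) presents ligand and also binds inhibin, the gonadal feedback hormone. TGFBR1 then phosphorylates SMAD2 and SMAD3, which join SMAD4 and act on genes in the nucleus. In the testis, ligands and receptors of this family are made by Sertoli, peritubular myoid, Leydig and germ cells, and they are known for roles in fetal gonad development and in the junctions between Sertoli cells.

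The arrays formed 2 technical sets. A bacterial Dap control RNA read 8.00 to 8.92 (log2) on the 12 arrays of the 12 h and 72 h mice and controls 4 to 7, and 2.74 to 3.30 on the 6 arrays of the 24 h mice and controls 1 to 3, whereas signal from 18S rRNA ran from 3.35 to 3.70 on the first 12 and from 9.07 to 11.7 on the other 6. The 12 h and 72 h mice were therefore compared with controls 4 to 7 and the 24 h mice with controls 1 to 3. Values are log2 expression, differences are FSH minus control on the log2 scale with the standard error (SE) of the fit, and a gene was called when its limma p, adjusted by the Benjamini-Hochberg method over all 22626 probe sets, was below 0.05.

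Tgfb1 and Tgfb3, 2 ligands that act through the same receptors, changed in opposite directions after 72 h of FSH: Tgfb1 was 3.92-fold higher and Tgfb3 was 2.63-fold lower than in controls 4 to 7. At 24 h, 1 member was called: Smad3 was 1.90-fold lower than in controls 1 to 3. In a fit chosen after seeing the data, with those mice paired by replicate number, Tgfbr2, 2.25-fold lower, was called too (adjusted p = 0.0313). The labels name no pairs, and the dimmer Tgfbr2 probe set 1422019_at ran the other way, by 0.27. At 12 h none of the 9 main probe sets was called. Without that pairing, the main probe sets of Tgfb2, Tgfbr1, Tgfbr2, Tgfbr3, Ltbp1 and Smad2 were called at no time. Over all 12393 measured genes, by the brightest probe set, 6.28% were called at 12 h, 14.8% at 24 h and 7.26% at 72 h, so counts of 0, 1 and 2 of 9 stood beside those shares. Split by direction, 3.52% of genes were higher and 2.76% lower at 12 h, 6.38% higher and 8.45% lower at 24 h, and 4.23% higher and 3.03% lower at 72 h.

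The promoter of Tgfb1, the member with the largest called change, and that of Smad3, the member called at 24 h, are shown as the sequence around each gene's start. Their part in these changes was not tested. The sequences are RefSeq windows on build GRCm38.p6 that run 250 bases before to 50 after the gene's start, 5′ to 3′ on the gene's own strand. Capitals mark each GC box, the Sp1-type motif GGGCGG or its reverse complement CCGCCC.
Tgfb1, chr7:25686752-25687051, plus strand: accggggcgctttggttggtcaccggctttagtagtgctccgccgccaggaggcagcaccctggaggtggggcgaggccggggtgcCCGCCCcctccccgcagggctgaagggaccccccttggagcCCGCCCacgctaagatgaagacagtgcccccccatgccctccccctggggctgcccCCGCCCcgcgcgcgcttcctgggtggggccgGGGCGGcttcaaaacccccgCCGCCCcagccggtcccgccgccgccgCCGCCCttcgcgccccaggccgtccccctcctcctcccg
Smad3, chr9:63757945-63758244, minus strand: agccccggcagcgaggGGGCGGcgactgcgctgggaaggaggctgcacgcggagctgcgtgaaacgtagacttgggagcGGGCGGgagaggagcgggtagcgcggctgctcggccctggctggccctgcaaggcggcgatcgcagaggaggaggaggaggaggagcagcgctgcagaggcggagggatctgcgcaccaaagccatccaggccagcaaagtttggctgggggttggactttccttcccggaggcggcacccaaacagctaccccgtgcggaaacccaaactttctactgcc

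The Tgfb1 window held 6 GC boxes and the Smad3 window 2. A search of both strands for the cyclic AMP response element TGACGTCA, its shorter core TGACG and the AP-1 motif TGANTCA found none in either window. A TGACGTCA also counts as a TGACG, as the longer motif contains the shorter. Of 32851 RefSeq promoter windows of this length, 35.7% held at least 1 GC box, 20.8% a TGACG, 7.81% a TGANTCA and 1.79% a TGACGTCA. Promoter windows were given for 6 of the 9 genes. Of 2 windows of Ltbp1, that at chr17:75005279-75005578 held 1 TGACGTCA and the other held none of the motifs, and the window of Tgfb2 held 1 TGACG; neither gene was called at any time.

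Among the ligands, Tgfb1 (probe set 1420653_at) encodes the family member best known for control of immunity and matrix production. Its values were 3.91, 3.93, 4.31 and 3.96 in the 12 h mice, 5.28, 5.59, 5.65 and 5.07 in the 72 h mice, and 3.88, 3.80, 3.03 and 2.99 in controls 4 to 7. Every 72 h mouse lay above every 12 h mouse, and every 12 h mouse lay above every control of that set, the narrowest gap being that between 3.91 and 3.88. Low readings such as 3.03 and 2.99 in controls 6 and 7 may only bound the transcript, so the 72 h fold is approximate. In the other array set, the 24 h mice read 3.94, 3.92 and 3.92 and controls 1 to 3 read 3.18, 3.69 and 2.77, again without overlap.

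The 72 h difference of Tgfb1 was 1.97 ± 0.23 (SE, 95% interval 1.49 to 2.46, adjusted p = 0.000114, n = 4 against 4). It was 1.32 and not called with the replicate number as a block over all arrays (adjusted p = 0.146, with 9.82e-06 to 0.146 over 24 alternatives), a fit in which only control 4 shares a number with these mice. The differences at 12 h (0.61 ± 0.23, adjusted p = 0.172) and at 24 h (0.72 ± 0.26, adjusted p = 0.0834) had the same sign and did not pass the test, and the 12 h difference was -0.05 with the replicate number as a block over all arrays. Without control 2 the 24 h difference was 0.95 and passed (adjusted p = 0.0372, with a range of 0.0372 to 0.232 over 24 alternatives). The 72 h mice also exceeded the 12 h mice directly, by 1.37 ± 0.23 or 2.58-fold (adjusted p = 0.00477), and here 2.86% of all genes were called. Set against 24 h, with each time taken minus its own controls, the 72 h difference was larger by 1.26 ± 0.35 and was not called (adjusted p = 0.152).

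Tgfb1 is also made by macrophages, so their markers are given beside it. The mean log2 level of 6 macrophage markers was 5.26 to 5.54 in the 72 h mice, 4.77 to 5.13 in the 12 h mice and 4.91 to 5.43 in controls 4 to 7. Of those 6 markers, 1 was called at 72 h: Cd68, a lysosomal protein of phagocytes, was higher by 1.34, while none was called lower. At 12 h and at 24 h the only call was Csf1r, the receptor that macrophages need for survival, which was lower by 0.85 and 0.73. The part of these markers in the Tgfb1 result was not tested.

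**Figure D1:**
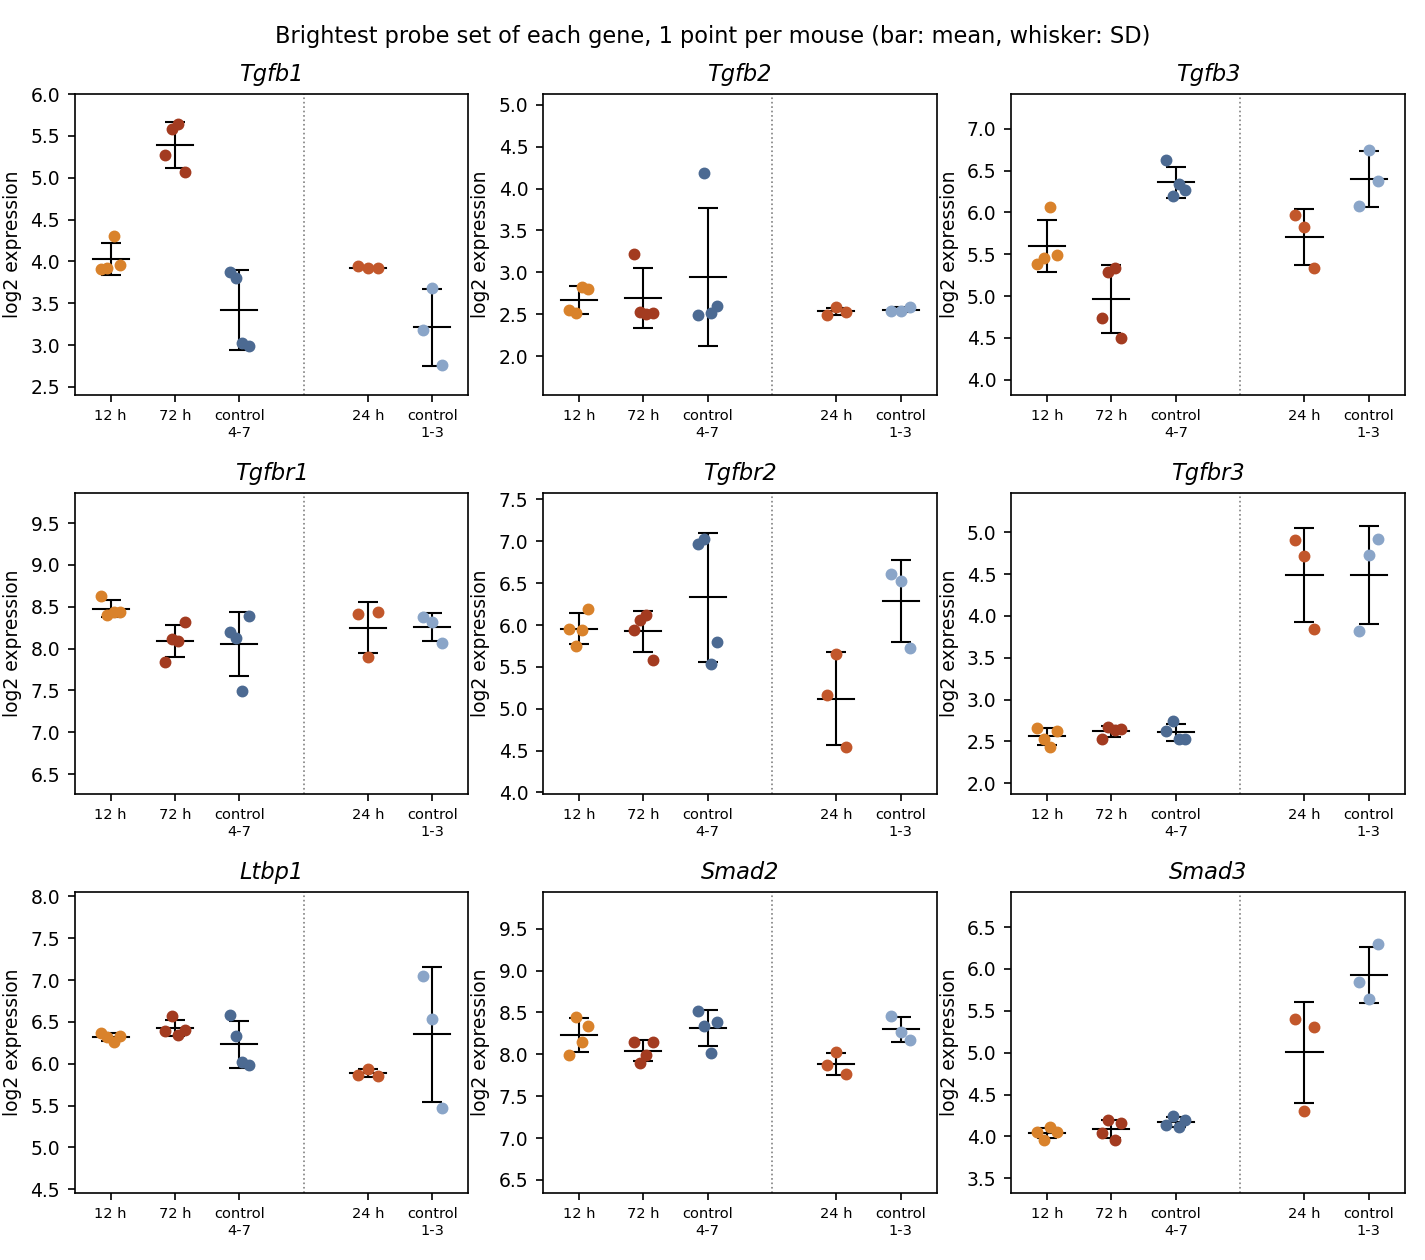
Log2 expression (vertical axis) of the main probe set of each of the 9 genes, 1 panel a gene, with 1 point a mouse, a horizontal bar at the group mean and whiskers of 1 SD, for the 12 h and 72 h mice beside controls 4 to 7 and the 24 h mice beside controls 1 to 3. The 4 Tgfb1 points at 72 h, 5.07 to 5.65, lie above all others of that gene, and the 72 h points of Tgfb3, 4.50 to 5.34, lie below all 7 of its controls.

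Tgfb3 (1417455_at), the ligand known for its part in palate closure, was on the opposite side. Its values were 5.38, 5.46, 6.07 and 5.49 in the 12 h mice, 4.74, 5.28, 5.34 and 4.50 in the 72 h mice, and 6.63, 6.20, 6.34 and 6.27 in controls 4 to 7. Both FSH groups lay wholly below those controls and did not overlap each other. The 24 h mice read 5.97, 5.82 and 5.33 and controls 1 to 3 read 6.08, 6.75 and 6.37, also without overlap.

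The 72 h difference of Tgfb3 was -1.39 ± 0.22 (95% interval -1.86 to -0.92, adjusted p = 0.00139), and with the same block over all arrays it was -1.95 and not called (adjusted p = 0.0814, with 0.000186 to 0.0814 over 25 alternatives). Differences of -0.76 ± 0.22 at 12 h (adjusted p = 0.0624) and -0.69 ± 0.25 at 24 h (adjusted p = 0.0857) did not pass. The 12 h difference passed at -0.91 without 12 h replicate 3 (adjusted p = 0.0313) and at -0.76 without 72 h replicate 4 (adjusted p = 0.0472), against 0.0193 to 0.263 over 25 alternatives. The 72 h and 12 h mice differed by -0.63 ± 0.22, which was not called (adjusted p = 0.203).

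Tgfb2 (1423250_a_at), the ligand whose loss in mice affects many organs, was dim on nearly every array. It read 2.51 to 2.82 in the 12 h mice, 2.50 to 3.22 in the 72 h mice and 2.49 to 4.18 in controls 4 to 7, where the highest value came from control 5 alone. The 24 h mice read 2.49 to 2.58 and controls 1 to 3 read 2.53 to 2.59. Its mean of 2.69 was below 4.54, the median over all probe sets. The other probe sets, 1450922_a_at and 1450923_at, were dim as well and were called at no time. Such values give only a bound on the transcript, and a change in Tgfb2 was not detectable here.

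Ltbp1 (1448870_at), which tethers latent ligand, differed in spread more than in level. It read 6.27 to 6.37 in the 12 h mice, 6.34 to 6.57 in the 72 h mice and 5.99 to 6.59 in controls 4 to 7. The 24 h mice read 5.87, 5.94 and 5.86, against 7.05, 6.53 and 5.47 in controls 1 to 3, so the 24 h mice lay inside the wide span of their controls. No difference was called, that at 24 h being -0.46 ± 0.27 (adjusted p = 0.259). Single controls decided this value: without control 1 the 24 h difference was -0.11, and without control 3 it was -0.90 (adjusted p = 0.00297, with 0.00297 to 0.814 over 25 alternatives), and the differences between times were -0.99 (24 h minus 12 h, adjusted p = 0.0291) and 1.10 (72 h minus 24 h, adjusted p = 0.0256), each past the threshold.

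**Figure D2:**
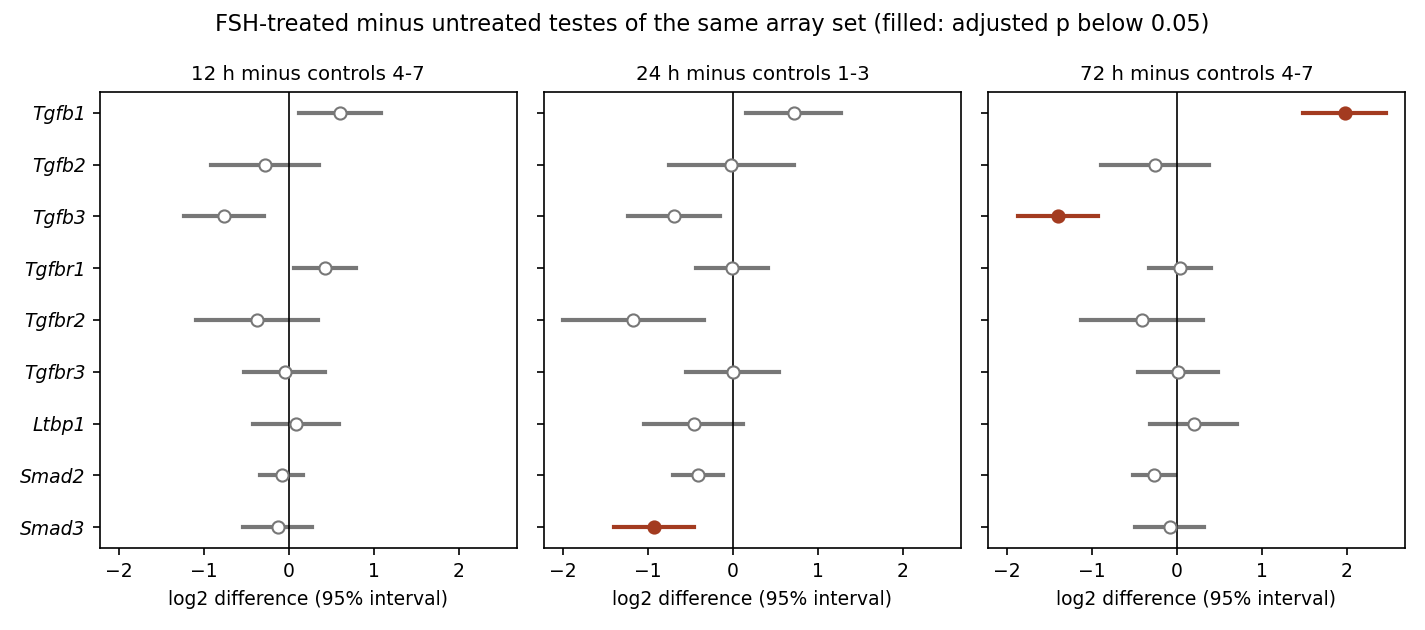
FSH minus control difference (log2, horizontal axis) of the main probe set of the 9 genes at 12, 24 and 72 h, with 95% intervals from the fit over 18 arrays and called genes marked. The 72 h interval of Tgfb1, 1.49 to 2.46, and that of Tgfb3, -1.86 to -0.92, lie on opposite sides of 0.

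Of the receptors, Tgfbr1 (1420895_at), the type I receptor kinase, was the brightest member by its mean. It read 8.41 to 8.63 in the 12 h mice, 7.84 to 8.31 in the 72 h mice and 7.50 to 8.39 in controls 4 to 7, and 7.90 to 8.44 in the 24 h mice against 8.07 to 8.38 in controls 1 to 3. The 12 h mice lay just above all controls of their set, by 0.43 ± 0.17 on average, which did not pass the test (adjusted p = 0.217). The differences at 24 h and 72 h were -0.01 ± 0.20 and 0.04 ± 0.17, with 95% intervals of -0.43 to 0.42 and -0.33 to 0.40. Its dimmer probe sets disagreed at 24 h, and neither was called: 1420893_a_at read 3.43 to 5.0 in the 24 h mice against 2.55 to 4.16 in controls 1 to 3, a difference of 0.88 (95% interval 0.04 to 1.73, adjusted p = 0.145). The other, 1420894_at, read 2.80 to 3.59 against 2.79 to 3.97, a difference of -0.43 (adjusted p = 0.232). On the arrays of the 12 h mice, the 72 h mice and controls 4 to 7 both stayed between 2.40 and 2.73.

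Tgfbr2 (1426397_at), the type II receptor that binds ligand first, had its largest difference at 24 h. The 24 h mice read 5.16, 5.65 and 4.54, against 6.61, 6.53 and 5.72 in controls 1 to 3. These groups did not overlap, although only 0.07 separated the nearest mice. The difference was -1.17 ± 0.39, or 2.25-fold lower, and missed the threshold (adjusted p = 0.0593).

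With replicate numbers kept as a block among those 6 arrays, Tgfbr2 passed at 24 h (-1.17 ± 0.34, adjusted p = 0.0313, with 0.0112 to 0.223 over 25 alternatives). It also passed without 24 h replicate 2 (-1.44), without control 3 (-1.45), and without control 5 or control 6 (-1.17 each), but not without 24 h replicate 3 (-0.88) or with its probe sets averaged (-0.31, adjusted p = 0.142). A dimmer probe set, 1422019_at, ran the other way: it read 3.16, 3.56 and 3.21 in the 24 h mice against 2.93, 3.11 and 3.06 in controls 1 to 3, a difference of 0.27 (adjusted p = 0.0600). The third, 1425444_a_at, was dim and differed by -0.04 (adjusted p = 0.719), so the probe sets of Tgfbr2 disagreed in sign at 24 h.

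In the other array set Tgfbr2 read 5.74 to 6.19 in the 12 h mice and 5.58 to 6.12 in the 72 h mice, within the 5.53 to 7.02 of controls 4 to 7. Controls 4 and 5 stood at 6.96 and 7.02 and controls 6 and 7 at 5.53 and 5.80, so the controls differed among themselves by more than either FSH group did.

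Tgfbr3 (1425620_at), the ligand-presenting betaglycan, read 2.43 to 2.66 in the 12 h mice, 2.53 to 2.67 in the 72 h mice and 2.53 to 2.74 in controls 4 to 7. In the other set it read 4.90, 4.72 and 3.84 in the 24 h mice and 3.83, 4.72 and 4.92 in controls 1 to 3. Its level differed between the array sets. The 3 differences from controls were within 0.05 of 0, that at 24 h with a 95% interval of -0.55 to 0.55, and values near 2.6 give only a bound on the transcript. In untreated mice alone, controls 1 to 3 were 1.88 above controls 4 to 7.

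**Figure D3:**
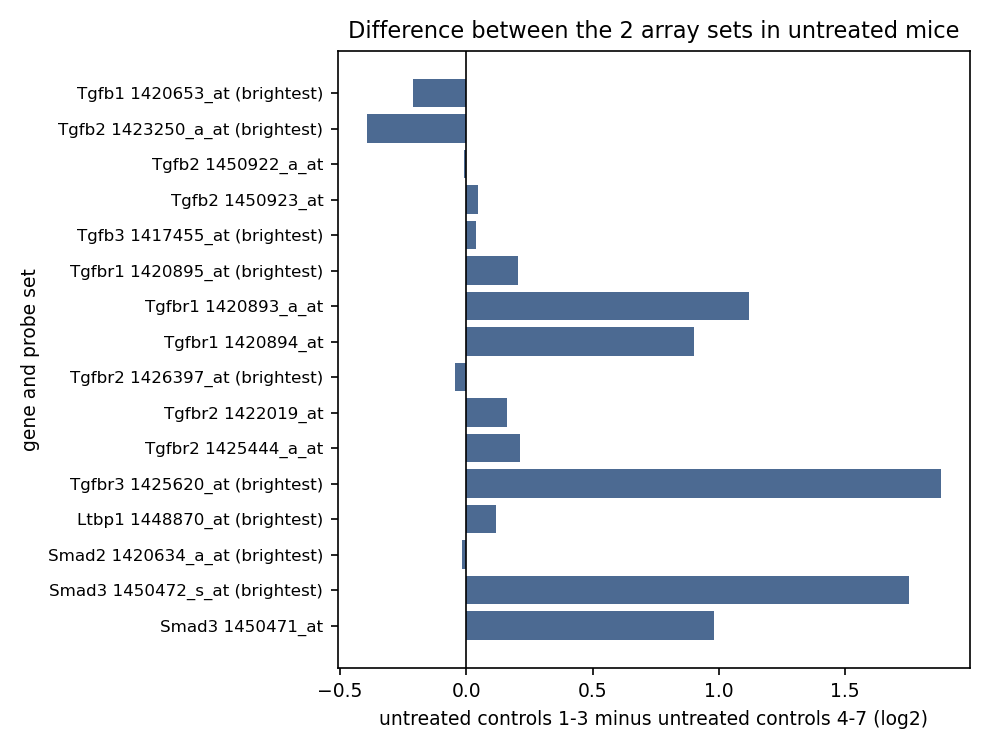
Mean of untreated controls 1 to 3 minus mean of untreated controls 4 to 7 (log2, horizontal axis) for each of the 16 probe sets. Tgfbr3 and Smad3 differ by 1.88 and 1.76 between the sets, and the main probe sets of Tgfb1 and Tgfb3 by -0.21 and 0.04.

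The signal carriers differed from each other in level. Smad2 (1420634_a_at), which TGFBR1 phosphorylates, was bright in every mouse: 8.00 to 8.45 at 12 h, 7.89 to 8.15 at 72 h and 8.02 to 8.52 in controls 4 to 7. The 24 h mice read 7.87, 8.03 and 7.77, against 8.46, 8.26 and 8.17 in controls 1 to 3, without overlap. The 24 h difference of -0.41 ± 0.13 (1.33-fold lower) missed the threshold (adjusted p = 0.0593). It passed without 12 h replicate 1 or without control 6 (adjusted p = 0.0475 and 0.0361, with 0.0112 to 0.214 over 25 alternatives), arrays that are not part of that comparison and that change only the shared estimate of spread.

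Smad3 (1450472_s_at), a SMAD that binds DNA directly, was the member called at 24 h, on a probe set of the type whose probes can match related transcripts. It read 5.40, 4.30 and 5.30 in the 24 h mice, against 5.84, 5.64 and 6.30 in controls 1 to 3. All 24 h mice lay below all of those controls, and replicate 2 lay farthest below. The difference was -0.92 ± 0.22 (95% interval -1.39 to -0.45, adjusted p = 0.0135), and without 24 h replicate 2 it was -0.57 and still called.

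The call of Smad3 did not hold in every alternative. With the 6 arrays of that set fitted alone the difference stayed at -0.92, its SE was 0.36 and the call was lost (adjusted p = 0.285). Averaging its probe sets lowered the difference itself to -0.63 (adjusted p = 0.112), as the dimmer 1450471_at read 2.12 to 3.46 in the 24 h mice and 2.22 to 4.12 in controls 1 to 3, a difference of -0.35 (adjusted p = 0.529). With all 7 controls pooled across the sets the difference was 0.08 (adjusted p = 0.904). The whole range over 25 alternatives was 0.000388 to 0.904. Beside this, the Smad3 level itself followed the array set: untreated controls 1 to 3 were 1.76 above untreated controls 4 to 7, and 18S signal was high on the same arrays. The part of the array set in the 24 h result was not tested.

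On the other arrays Smad3 read 3.95 to 4.11 at 12 h, 3.96 to 4.19 at 72 h and 4.11 to 4.24 in controls 4 to 7, with differences of -0.13 ± 0.19 and -0.08 ± 0.19, and 1450471_at was dim, at 2.05 to 2.10, in all of these mice. The 24 h difference of Smad3 was not called different from that at 12 h (-0.79 ± 0.29, adjusted p = 0.217) or at 72 h (72 h minus 24 h, 0.84 ± 0.29, adjusted p = 0.282). With the replicate block among the 24 h mice and controls 1 to 3, both were called (adjusted p = 0.0267 and 0.0310). Between times, 0.928% of all genes were called for 24 h against 12 h and 0.339% for 72 h against 24 h.

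The FSH and control mice did not overlap for 3 of 9 main probe sets at 12 h, 5 of 9 at 24 h and 2 of 9 at 72 h. Over all genes this held for 12%, 37.5% and 14.2%. At 12 h Tgfb1 and Tgfbr1 lay above and Tgfb3 below the controls, at 24 h Tgfb1 lay above and Tgfb3, Tgfbr2, Smad2 and Smad3 below, and at 72 h Tgfb1 lay above and Tgfb3 below. The median difference of the 9 genes was -0.08, -0.41 and -0.08 at 12, 24 and 72 h, beside -0.00, 0.04 and 0.01 over all genes. Across the 18 arrays, with each value taken minus the mean of its own set's controls, Tgfb1 and Tgfb3 had a Pearson r of -0.71, which describes mice that share the treatment groups.

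The wider pathway was followed in 73 measured genes of 82 listed, of which 22 were called at 1 or more times by the brightest probe set. No share over all genes was drawn up for calls at 1 or more times. Calls were 2 higher and 6 lower at 12 h, 1 higher and 14 lower at 24 h, and 5 higher and 7 lower at 72 h, and the median difference of the 73 genes was -0.00 at each time. Between 72 h and 12 h, 3 were called, all lower.

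Of 18 genes of ligand latency and activation, 2, 4 and 3 were lower at 12, 24 and 72 h, and 1 was higher at 72 h. Ltbp4, a latent ligand binder of elastic fibres, was lower by 1.60 ± 0.23 at 24 h (adjusted p = 0.000517) and by 1.0 ± 0.20 at 72 h (adjusted p = 0.00725). Ltbp3, its relative, was lower by 1.16 ± 0.29 and 0.94 ± 0.25 at those times (adjusted p = 0.0165 and 0.0363). Dcn, a small proteoglycan that binds TGF-beta, was lower at all 3 times, by 0.67, 1.21 ± 0.20 and 1.05 ± 0.17. Mmp2, a matrix protease, was lower by 1.20 at 12 h and 1.41 at 24 h, and Mmp14, the membrane protease that activates it, was higher by 0.61 at 72 h (adjusted p = 0.0363).

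Of 12 co-receptors and adaptors, Bambi, a decoy receptor without a kinase, was lower by 0.69 at 12 h and 0.72 at 24 h. Dab2, an endocytic adaptor, was higher by 0.84 at 72 h (adjusted p = 0.0105), but its other probe sets stood at -0.25 and 0.23 and were not called. The brightest probe set of Fkbp1a differed by 0.32 at 24 h and was not called (adjusted p = 0.261). Dimmer Fkbp1a probe sets at 0.77, 0.75 and 0.65 were called higher at 24 h (adjusted p = 0.00178, 0.00361 and 0.00163). The dimmest, at 0.08, was not called (adjusted p = 0.154). Of 10 other SMADs and turnover factors, 1, 3 and 1 were lower at the 3 times. Smad4, the partner shared by SMAD2 and SMAD3, was lower by 0.76 at 24 h (adjusted p = 0.00911), as were the phosphatase Ppm1a (-0.43, adjusted p = 0.0261) and the ubiquitin ligase Rnf111 (-0.65, adjusted p = 0.0279). Trim33, a ubiquitin ligase that binds SMADs, was the gene lower at 12 h (-0.23, adjusted p = 0.0209) and at 72 h (-0.25, adjusted p = 0.0124).

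Of 14 nuclear partners, 1 was higher and 1 lower at 12 h, 1 higher and 3 lower at 24 h, and 1 higher at 72 h. The related SMAD corepressors Tgif2 and Tgif1 were on opposite sides at 12 h: Tgif2 was higher by 0.61 (adjusted p = 0.0069) and Tgif1 was lower by 0.46 (adjusted p = 0.0228). Tgif2 was also higher by 0.65 at 72 h, and Tgif1 was lower by 0.44 at 24 h. Ski, another corepressor, was lower by 0.86 at 24 h (adjusted p = 0.0215). The transcription factor Sp1 was lower by 0.82 at 24 h (adjusted p = 0.0135), where its other probe set stood at -0.11 and was not called, and dim Runx3 was higher by 0.18 (adjusted p = 0.0137).

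Genes known elsewhere as TGF-beta targets changed in both directions. Of 19 such genes, 1 was higher and 1 lower at 12 h, 3 were lower at 24 h, and 2 were higher and 3 lower at 72 h. Ccn2, a matricellular growth factor, averaged 6.65 at 12 h, 5.73 at 24 h and 6.75 at 72 h, against 8.27 in controls 4 to 7 and 8.19 in controls 1 to 3. It was thus lower at every time, by 1.62 ± 0.28, 2.46 ± 0.32 and 1.52 ± 0.28 (adjusted p = 0.00235, 0.000215 and 0.00379). Col1a1, a chain of type I collagen, averaged 8.28 at 72 h against 6.63 in controls 4 to 7 and was higher by 1.65 ± 0.35, or 3.14-fold (adjusted p = 0.0102). Its other probe set differed by 0.94 and was not called (adjusted p = 0.061). Dimmer probe sets of the collagen genes Col1a2 and Col3a1 were called higher at 72 h, by 1.52 and 1.62 (adjusted p = 0.00075 and 0.0258). The brightest probe sets of Col1a2 and Col3a1 were not called. Klf10, an early TGF-beta response gene, was higher by 0.60 at 12 h (adjusted p = 0.0292), and the cell cycle inhibitor Cdkn1a was higher by 0.57 at 72 h (adjusted p = 0.0477).

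Timp3, a matrix protease inhibitor, was lower by 1.96 ± 0.26 at 24 h (adjusted p = 0.000257), and by 1.40 ± 0.23 at 72 h (adjusted p = 0.00165). Tgfbi, a matrix protein named for its induction by TGF-beta, was lower by 1.59 at 24 h (adjusted p = 0.0047), and by 1.28 ± 0.27 at 72 h (adjusted p = 0.0112). At 72 h, then, Ccn2, Timp3 and Tgfbi were lower and Col1a1 was higher in the same mice whose Tgfb1 was highest.

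**Figure D4:**
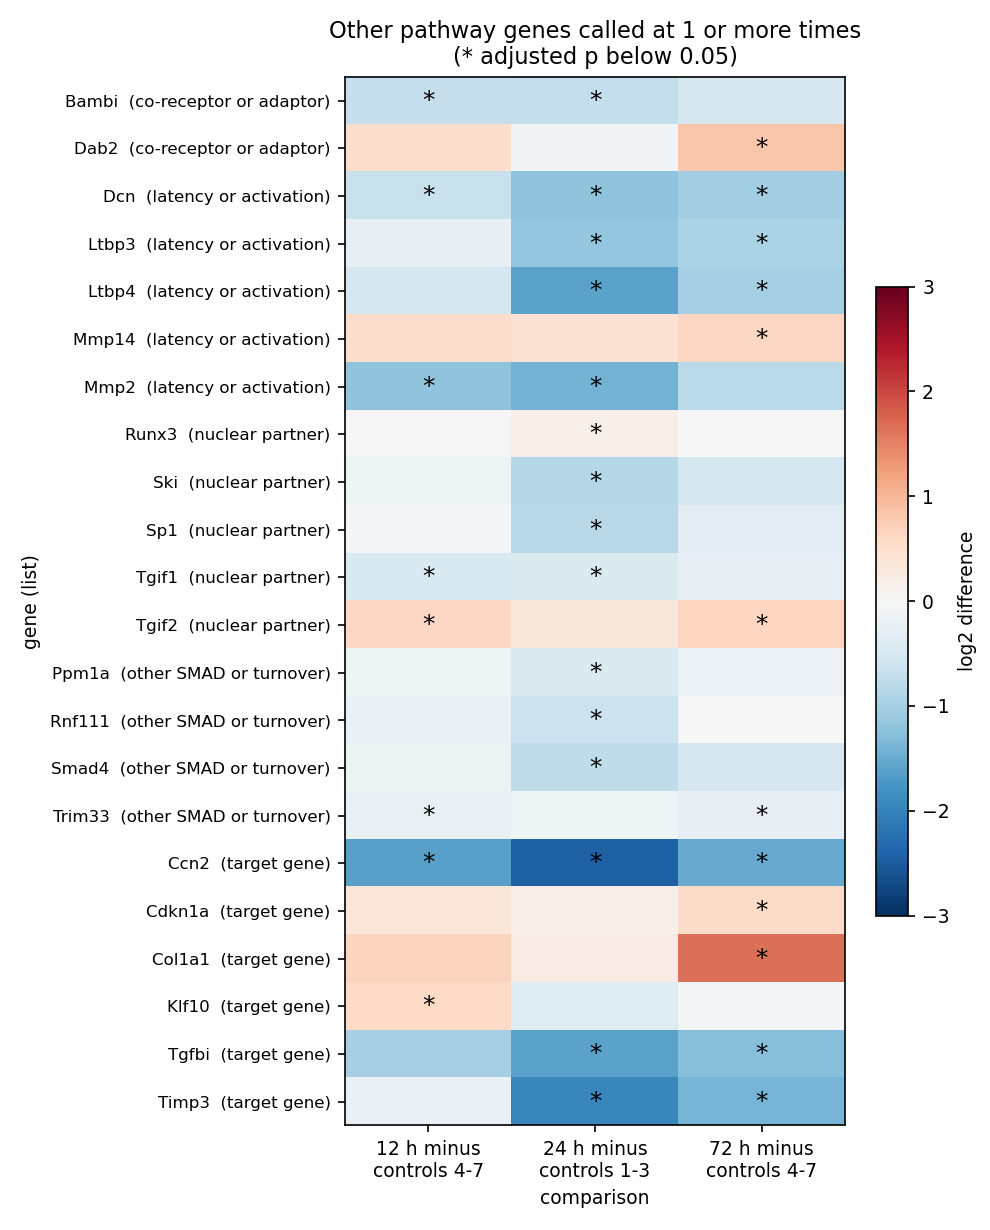
FSH minus control difference (log2) at 12, 24 and 72 h for the genes of the wider pathway called at 1 or more times, grouped by role. Ccn2, at -1.62, -2.46 and -1.52, is lower at every time, and Col1a1, at 1.65, is the highest of them at 72 h.

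Cell type markers moved beside these genes. The mean log2 level of 7 Sertoli markers was 8.54 to 8.79 at 12 h and 9.39 to 9.60 at 72 h against 8.64 to 8.91 in controls 4 to 7, and 9.09 to 9.40 at 24 h against 8.68 to 8.85 in controls 1 to 3. Rhox5, an androgen-responsive homeobox gene, carried most of this: it averaged 8.42 at 72 h against 4.15 in controls 4 to 7, while the median difference of the 7 markers was -0.02 at 72 h and -0.09 at 24 h. For 6 germ cell markers the mean level was 8.76 to 9.33 at 12 h and 8.63 to 9.08 at 72 h against 9.13 to 9.59 in controls 4 to 7, and 8.09 to 8.74 at 24 h against 9.07 to 9.31 in controls 1 to 3. For 5 Leydig markers it was 7.77 to 8.16 at 12 h, 6.55 to 7.40 at 72 h and 5.94 to 7.10 in controls 4 to 7, and 7.63 to 8.53 at 24 h against 5.93 to 6.04 in controls 1 to 3. Of the markers, 1, 2 and 3 Sertoli genes were higher at 12, 24 and 72 h, 2, 3 and 0 Leydig genes were higher, and 1, 3 and 2 germ cell genes were lower. Myoid markers, 6 in number, had 2, 1 and 1 higher, and none of 6 endothelial markers was called at any time. The part of these shifts in the results for Tgfb1, Tgfb3 and the pathway was not tested.

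For the 3 called members, the genes with the most similar pattern over the 18 arrays, again minus each set's control mean, were named by Pearson r. They were Anxa4, Ddah2 and Adamts5 for Tgfb1 (r = 0.90, 0.90 and 0.89), Tspan4, Clca3a1 and Padi2 for Tgfb3 (0.88, 0.88 and 0.87), and Ddx52, Rab23 and Ints7 for Smad3 (0.92, 0.91 and 0.91). Adamts5, a matrix protease, differed from controls by 0.86, 0.68 and 1.29 at 12, 24 and 72 h. Clca3a1 differed by -1.35, -1.70 and -2.70. Ints7, a subunit of the Integrator complex, differed by -0.20, -1.15 and -0.35. These genes were picked for their likeness to the members on the same arrays, so shared directions and times follow from the choice.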

How the data were processed

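The authors deposited 1 table of log2 expression values for 22690 probe sets on 18 arrays. RMA and GCRMA, which summarise probes into 1 value per probe set, are listed in the submitters' processing notes, and the sources used here do not say which applied. The scale was taken as log2 from the range of 1.04 to 15.2. The 64 control probe sets were left out, and 22626 were tested with no filter on low values, since a low value bounds a transcript.

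Limma 3.58.1 in R 4.3.3 fitted 5 means (12 h, 24 h, 72 h, controls 4 to 7, controls 1 to 3; 13 residual degrees of freedom), with moderated variances and Benjamini-Hochberg adjustment. The step was tested on simulated data. Correlations between arrays were 0.945 to 0.997, so no array was a duplicate. Precision is limited by the number of arrays.

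Named are all 9 members, pathway genes called at any time by their brightest probe set and, per called member, the 3 genes nearest in pattern among those brighter than the median. Col1a2, Col3a1 and Fkbp1a are named for calls of dimmer probe sets, which the counts of called pathway genes leave out. Other pathway genes with such calls, some higher and some lower, are not listed. Members and lists were chosen with earlier results of these data known. Deviations of same-numbered 24 h and control mice from their group means correlated (r = 0.179, 0.343 and 0.406 over probe sets). No such values are given for differently numbered mice, and the labels name no pairs, so pairing is not established. The fit was repeated with the same-numbered mice paired. That value stands beside each call of a member that it changes, and the fit reported first has no block. Pathway genes, markers and shares over all genes are given from the unpaired fit only. Which of their 24 h calls pairing would change is not given. For same-numbered 72 h and 12 h mice the correlations were lower, at 0.0133 to 0.130. Gene names come from the platform annotation, which can be old. Alternatives were the array set, normalisation, brightness filter, probe set averaging, replicate block and leaving out each array.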

Additional observations from a re-analysis of the deposited data

Results flagged for a closer look

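Single mice stood apart from their group for 7 of the 48 groups of 4 arrays tested with Dixon's criterion, which chance alone flags in about 1 group in 20. Of these, 4 concern dim Tgfb2 probe sets. For 1423250_a_at, 72 h replicate 1 at 3.22 and control 5 at 4.18 stood above their groups, and for 1450922_a_at, 12 h replicate 4 at 3.30 stood above and 72 h replicate 3 at 2.50 below. Among the brighter genes, 12 h replicate 3 stood above the other 12 h mice for both Tgfb1 (4.31) and Tgfb3 (6.07), and 12 h replicate 1 did so for Tgfbr1 (8.63).

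Tgfb1 was the member whose level differed between times: the 72 h mice exceeded the 12 h mice by 1.37 on the log2 scale (SE 0.23, adjusted p = 0.00477), higher in 4 of 4 mice than any 12 h mouse.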

How the results depend on the processing

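At 72 h the rise of Tgfb1 and the fall of Tgfb3 were called in 23 of 24 and 24 of 25 alternatives, with leave-one-out ranges of 1.83 to 2.12 and -1.52 to -1.24. The exception was the replicate block over all arrays (Tgfb1 1.32, adjusted p = 0.146; Tgfb3 -1.95, adjusted p = 0.0814), in which only control 4 shares a number with the FSH mice of that set. Quantile normalisation left all 54 member values on the same side of the threshold. Dim probe sets such as Tgfb2 give no usable difference, and 3 or 4 mice per group limit what can be called.

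Against 0, 1, 2, 1, 0 and 0 members called at 12 h, 24 h, 72 h, 72 h against 12 h, 24 h against 12 h and 72 h against 24 h, pooling all 7 controls without the array set gave 2 at 12 h, 4 at 24 h, and 2 and 3 for the last pair; it also turned Smad3 at 24 h to 0.0804 and Tgfbr3 between 72 h and 24 h to -1.87. Fitting each array set alone gave 0 at 24 h. Averaging probe sets gave 0 at 24 h. Keeping only probe sets brighter than the median, which drops Tgfb1, gave 1, 2 and 1 at the 3 times and 0 for 72 h against 12 h. The replicate block over all arrays gave 2 at 24 h and 0 at 72 h. The replicate block among the 24 h mice and controls 1 to 3, chosen after seeing the data, gave 2 at 24 h and 1 for each of the last pair; it changed no other call of a member against controls.

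Over all probe sets the fit called 1211, 3023, 1388, 535, 198 and 84. Without the array set the counts were 8137 at 24 h (5283 higher, beside 1381 of 3023), 9098 and 7001 for the last pair. Fitting the set alone gave 393 at 24 h, and the brightness filter gave 40 for 72 h against 24 h. The replicate block over all arrays gave 255 at 12 h, 244 at 72 h, 324 for 72 h against 12 h, 52 and 43, and the block among 24 h mice and controls 1 to 3 gave 4827 at 24 h, 650 and 301. The causes were not tested. Leaving out 1 array gave 877 to 1278, 1678 to 3848, 994 to 1456, 290 to 579, 94 to 756 and 46 to 399 probe sets, and 0 to 1, 1 to 3, 2 to 2, 1 to 1, 0 to 1 and 0 to 1 members.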
